A study of Homo sapiens with 4 samples.

Results

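The genes described here are 10 cytokine, antagonist and receptor genes of the interleukin-1 (IL-1) family, taken by their Ensembl identifiers from an RNA-seq table of 58735 genes. All 10 had a row, and 9 had enough reads for testing. They are the ligands IL1A, IL1B, IL18, IL33 and IL36G, the receptor antagonist IL1RN, the binding protein IL18BP, and the receptor chains IL1R1, IL1RAP and IL1RL1. The cells were A549, an established line from a human lung adenocarcinoma. One group of 2 libraries carried a non-targeting guide (control), the other group of 2 libraries a guide against UHRF1 (UHRF1 KO). Both groups had received a lentiCRISPRv2-hygro lentivirus, a vector that carries Cas9 and the guide, and both had been selected with hygromycin. Whether a group was a pool or 1 clone, and whether its 2 libraries came from separate cultures, was not stated in the sources read. The p-values therefore reflect only how far these libraries differ, and that spread may be technical.

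IL-1 family cytokines are early alarm signals of inflammation. IL-1α (IL1A) and IL-1β (IL1B) bind the receptor IL1R1, which pairs with the shared chain IL1RAP and signals through MYD88 and IRAK kinases to NF-kB, while the antagonist encoded by IL1RN occupies the same receptor without signalling. IL-33 binds IL1RL1 (also called ST2) together with IL1RAP, IL-18 is neutralised by IL18BP, and IL-36γ (IL36G) acts through IL1RL2 and IL1RAP. Epithelial cells, those of the lung included, both release some of these cytokines and respond to them with chemokines. UHRF1 binds hemimethylated CpG sites, which are formed when methylated DNA is replicated, and recruits the maintenance methyltransferase DNMT1.

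Total counts ran from 18604598 to 23977168 per library, so 1 count was worth between 0.0402 and 0.0561 CPM (counts scaled to a common library size by TMM, a correction for differences in library composition). UHRF1 had 1740 and 1834 counts in control and 811 and 1000 in UHRF1 KO (log2 fold change -1.31, SE 0.055, edgeR adjusted p = 3.92e-20), and a guide need not remove the transcript. Of 11 epithelial genes, 9 could be tested, and 3 were called higher and 5 lower, against 32.0% and 30.1% of all genes tested. The keratins KRT8, KRT18, KRT19 and KRT7 and the cadherin CDH1 were lower but high in all 4 libraries, with KRT8 at 2676 ± 107.8 CPM in the controls and at 2108 ± 16.0 CPM after UHRF1 targeting (mean ± SD, n = 2). EPCAM and MUC1 were higher, with log2 fold changes of 2.16 and 2.51, as was SFTPB, which had 0 and 2 counts in control and 38 and 41 in UHRF1 KO and passed the low-count filter through the knockout alone. The lung markers NKX2-1 and SFTPC had at most 1 count in any library. Among 20 markers of other cell types, CD3E, MS4A1 and CPA3 had 0 counts in all 4 libraries. The summed level of the 20 markers lay between 7.38 and 8.30 CPM in the controls and between 49.5 and 51.7 CPM in the knockout libraries, and 7.28 to 7.91 against 20.3 to 21.2 CPM without the endothelial marker PECAM1. Of the 20, from 10 to 16 had at least 1 count in a library, and the leukocyte marker PTPRC had 0 and 0 counts in control and 10 and 20 in UHRF1 KO. All 5 of these markers that could be tested (PECAM1, LUM, CD14, PDGFRB and ITGAM) were called higher in UHRF1 KO. Of these, PECAM1, LUM and PDGFRB passed the low-count filter only through the knockout libraries, which favours a higher call. The other 2, CD14 and ITGAM, stand beside 26.7% called higher among genes that reached it in both controls. These markers moved with the cytokine genes described below, and their part in the results was not tested. In bulk RNA, fewer cells of a type and less RNA per cell cannot be told apart.

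Promoter sequences are shown first, because UHRF1 acts at CpG sites: the 6 printed show the range of CpG density among the members, from CpG-poor to CpG-rich starts. RefSeq start-site windows (GRCh38.p14, from 250 bases before to 50 bases after a start) were found for 9 of the 10 members, 20 windows in all, since several members have more than 1 start and windows of the same gene can overlap. IL18 had no entry. The stretches below are the parts of 6 windows that lie before the start site and outside every exon of GENCODE 29, printed 5′ to 3′ on the gene's own strand. Capitals mark CpG dinucleotides.
IL1A, chr2:112784591-112784743, minus strand: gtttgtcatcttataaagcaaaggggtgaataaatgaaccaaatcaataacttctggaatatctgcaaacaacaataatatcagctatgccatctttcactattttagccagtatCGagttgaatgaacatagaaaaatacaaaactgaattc
IL1B, chr2:112836904-112837029, minus strand: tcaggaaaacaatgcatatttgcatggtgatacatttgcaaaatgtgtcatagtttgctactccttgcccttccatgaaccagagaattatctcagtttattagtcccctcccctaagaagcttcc
IL33, chr9:6215557-6215785, plus strand: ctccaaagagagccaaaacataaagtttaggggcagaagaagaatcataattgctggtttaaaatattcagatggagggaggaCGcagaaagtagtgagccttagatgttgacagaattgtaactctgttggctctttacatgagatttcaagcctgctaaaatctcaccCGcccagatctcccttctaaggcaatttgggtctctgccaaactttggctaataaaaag
IL1RN, chr2:113117721-113117892, plus strand: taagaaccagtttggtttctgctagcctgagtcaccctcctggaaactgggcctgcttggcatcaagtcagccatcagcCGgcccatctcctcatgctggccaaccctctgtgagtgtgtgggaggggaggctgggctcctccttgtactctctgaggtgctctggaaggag
IL1R1, chr2:102142496-102142745, plus strand: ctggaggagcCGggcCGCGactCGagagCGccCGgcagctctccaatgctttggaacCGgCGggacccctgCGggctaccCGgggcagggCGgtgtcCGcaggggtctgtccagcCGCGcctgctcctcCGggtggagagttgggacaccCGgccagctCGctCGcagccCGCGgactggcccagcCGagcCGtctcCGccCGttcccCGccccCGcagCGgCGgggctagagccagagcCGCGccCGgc
IL1RAP, chr3:190513835-190514050, plus strand: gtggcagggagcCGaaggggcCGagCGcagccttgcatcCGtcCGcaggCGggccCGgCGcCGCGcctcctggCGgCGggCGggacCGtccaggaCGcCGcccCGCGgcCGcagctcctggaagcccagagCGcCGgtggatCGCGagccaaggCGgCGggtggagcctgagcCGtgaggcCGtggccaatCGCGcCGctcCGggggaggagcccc

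The printed stretches of the 4 genes IL1A, IL1B, IL33 and IL1RN held 1, 0, 2 and 1 CpG sites. Those of the receptor chains IL1R1 and IL1RAP held 31 each. These counts cover unlike regions, since the stretches are from 126 to 250 bases long. Those of IL1A, IL1B and IL1RN end 98, 125 and 79 bases before the start site. Those of IL33, IL1R1 and IL1RAP end 22, 1 and 35 bases before it. Over the full windows of 300 bases, IL1B had 2 CpG, IL33 had 1 and 3, IL1RN had 2, 5 and 7, IL1RL1 had 1 in each of 2 windows, and IL1A had 8 in each of 2. Of the members that were not called higher, IL18BP had 9, 4, 2 and 4 CpG in its 4 windows and IL36G had 6, while IL1RAP, with a CpG-rich start, was called higher. CpG-poor windows were thus found both among members that rose and among members that did not. The median over all 35116 RefSeq windows was 14, and 18.2% of them had 2 or fewer. Only the IL1R1 window printed above, with 40 CpG, and the IL1RAP window, with 36, lay above that median among the 20 windows. The other 3 IL1R1 windows had 4, 7 and 8, so IL1R1 has both kinds of start, and the gene counts do not show which start was used. DNA methylation was not measured in these libraries.

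Short motifs were counted on both strands of the 20 windows. TGANTCA, a loose form of the AP-1 motif that allows any base at its centre, occurred in 4 windows of 3 members, against 7.71% of all windows. These were both overlapping IL1A windows, 1 of IL1RN and 1 of IL1RL1, the last with T at the centre. TATAAA occurred in 4 windows of 4 members (IL1A, IL1RN, IL1R1 and IL1RL1), against 11.5% of all windows. The kappaB consensus occurred in 0 of the 20 windows and in 11.3% of all windows. A match is a description of the letters and not evidence of binding, and enhancers lie outside these windows.

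The main comparison asked which of the members changed when UHRF1 was targeted. Transcripts of both IL-1 agonists, of IL-33, of the IL-1 receptor antagonist and of the IL-33 receptor rose from low levels in UHRF1 KO, and the shared chain IL1RAP rose 1.65-fold. IL18, IL18BP and IL1R1, which already had 66 or more counts in each control library, did not pass the test, and IL36G had too few reads to test. In counts, 6 of the 9 tested members were called higher at an edgeR adjusted p under 0.05 and 0 lower, against 32.0% and 30.1% of the 17030 genes tested (62.0% in either direction). Over all genes the calls split into 5445 higher and 5118 lower, and into 3481 and 8411 with libraries recentred on their mean log2 CPM. No member was lower at an unadjusted edgeR p under 0.05, in DESeq2 or in limma-voom, and 2 (IL18 and IL1R1) were called lower with that recentring. Of the members, 5 were at least 2-fold higher, against 15.4% of all genes tested, and 0 at least 2-fold lower, against 2.54%. Of the tested members, 4 (IL1B, IL33, IL1RN and IL1RL1) passed the low-count filter only because of the knockout libraries. That selection favours a higher call without fixing it. Among the other 5, IL1A and IL1RAP were called higher, against 26.7% of the 14832 genes that reached the filter level in both controls, of which 34.5% were lower.

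**Figure D1:**
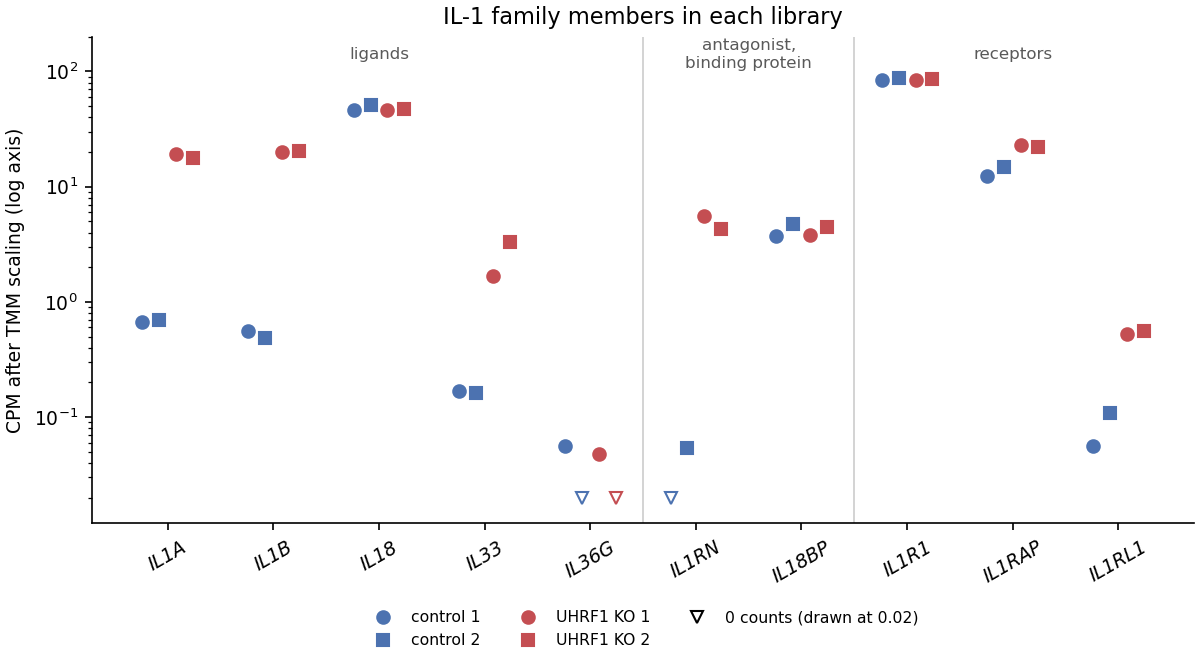
Level of each member in each library, in CPM after TMM scaling on a log axis, with circles for replicate 1 and squares for replicate 2 of control (blue) and UHRF1 KO (red), and open triangles for 0 counts. The IL1A and IL1B points sit below 1 CPM in control and between 17.7 and 20.5 CPM in UHRF1 KO, while the IL18, IL18BP and IL1R1 points of the groups overlap.

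Among the ligands, IL1A (ENSG00000115008, chromosome 2, 112773915 to 112784590, minus strand) had 12 and 13 counts in control and 395 and 440 in UHRF1 KO. These are 0.673 and 0.701 CPM against 19.0 and 17.7 CPM, so both knockout libraries stood far above both controls. The log2 difference, UHRF1 KO minus control, was 4.73 (SE 0.19, adjusted p from edgeR = 1.87e-20), which is 26.5-fold. IL-1α is active without cleavage and is released from damaged epithelium.

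IL1B (ENSG00000125538, chromosome 2, 112829751 to 112836903, minus strand) had 10 and 9 counts in control and 413 and 510 in UHRF1 KO. The levels were 0.561 and 0.485 CPM against 19.9 and 20.5 CPM, with a narrow spread in each group. The log2 difference, UHRF1 KO minus control, was 5.26 (SE 0.20), or 38.3-fold. No p is given for IL1B, since it passed the low-count filter only through the knockout libraries, which favours a higher call. IL-1β is made as an inactive precursor that caspase-1 cleaves, so the transcript does not measure the active cytokine.

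IL33 (ENSG00000137033, chromosome 9, 6215786 to 6257983, plus strand) encodes a nuclear alarmin of barrier cells. It had 3 counts in each control and 35 and 82 counts in UHRF1 KO, or 0.168 and 0.162 CPM against 1.69 and 3.30 CPM. The knockout libraries were both higher than the controls but differed from each other by a larger ratio than for any other member that rose. The log2 difference, UHRF1 KO minus control, was 3.89 (SE 0.50). Leaving out UHRF1 KO replicate 2 gave 3.30, and leaving out replicate 1 of that group 4.27. IL33 too passed the low-count filter only through the knockout libraries, which favours a higher call, so no p is given.

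IL18 (ENSG00000150782, chromosome 11, 112143251 to 112164117, minus strand), which encodes a cytokine that epithelial cells hold ready as a precursor, was measured at 46.5 and 51.2 CPM in control, against 45.9 and 47.4 CPM in UHRF1 KO. The groups overlapped, and the log2 difference was -0.07 (SE 0.064, adjusted p from edgeR = 0.386). With libraries recentred on their mean log2 CPM it was -0.36 (edgeR adjusted p = 5.85e-06), a setting that moved the median of all genes tested from 0.02 to -0.27. IL36G (ENSG00000136688, chromosome 2, 112973203 to 112985665, plus strand) had 1 and 0 counts in control and 1 and 0 in UHRF1 KO. A change in IL36G was not detectable at this depth.

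The antagonist IL1RN (ENSG00000136689, chromosome 2, 113107214 to 113134016, plus strand) had 0 and 1 counts in control and 116 and 106 in UHRF1 KO, which are 5.59 and 4.26 CPM. Its transcript was thus nearly absent from the controls and present in both knockout libraries. The ratio of the summed counts, scaled to library size, was 177.1, with an exact 95% interval from 31.5 to 7028 that covers counting error only. The fitted log2 fold change was 7.19 (SE 0.54), and it rests on 1 control count. It was 9.69 without control replicate 2 and 6.34 without control replicate 1. The gene passed the low-count filter only through the knockout libraries, which favours a higher call, and no p is given. IL1RN makes secreted and intracellular isoforms from different starts, which gene counts do not separate.

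Per length, IL1RN stayed below the 2 agonists together in all 4 libraries. The ratio of IL1RN to the sum of IL1A and IL1B, each per kilobase of annotated exon, was 0.112 and 0.0875 in the UHRF1 KO libraries and 0 and 0.034 in the controls. The control ratios rest on at most 1 IL1RN count, and the difference of 0.083 had an exact two-sided permutation p = 0.333, the smallest that 2 against 2 libraries allow. The corresponding ratio of IL18BP to IL18 was 0.048 and 0.056 in control and 0.05 and 0.057 in UHRF1 KO, with overlapping groups (exact two-sided permutation p = 0.667).

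IL18BP (ENSG00000137496, chromosome 11, 71998541 to 72005715, plus strand) encodes the secreted inhibitor of IL-18 and is usually induced by interferon-γ. It had 66 and 88 counts in control and 79 and 110 in UHRF1 KO, or 3.70 and 4.74 CPM against 3.81 and 4.42 CPM. Both knockout values lay between the control values, and the log2 difference was -0.03 (SE 0.20, adjusted p from edgeR = 0.897). The gene overlaps NUMA1 on the other strand, which had 2087 to 2969 counts per library, and whether strand was used in counting was not stated in the sources read.

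Among the receptors, IL1R1 (ENSG00000115594, chromosome 2, 102064544 to 102179874, plus strand), the signalling receptor for both IL-1 agonists, was measured at 84.2 and 87.4 CPM in control, against 84.0 and 86.8 CPM in UHRF1 KO. The groups overlapped, and the log2 difference was -0.01 (SE 0.050, adjusted p from edgeR = 0.925). Its direction follows the scaling, from -0.30 with recentred libraries (edgeR adjusted p = 1.93e-06) to 0.018 with upper-quartile factors. IL1R1 had the most counts of the members, and the tested coding genes with the profile nearest to it over the 4 libraries were SMARCD1, PCYT1A and TWSG1, at distances of 0.0057, 0.011 and 0.011 in centred log2 CPM.

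IL1RAP (ENSG00000196083, chromosome 3, 190514051 to 190659750, plus strand), the chain shared by the IL-1, IL-33 and IL-36 receptors, had 221 and 276 counts in control and 477 and 548 in UHRF1 KO. Its level was 12.4 and 14.9 CPM in control, against 23.0 and 22.0 CPM in UHRF1 KO, without overlap. The log2 difference, UHRF1 KO minus control, was 0.72 (SE 0.099, adjusted p from edgeR = 1.52e-07), and 0.43 with recentred libraries (edgeR adjusted p = 2.50e-04). Membrane-bound and soluble forms of this chain arise by splicing and were not separated.

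IL1RL1 (ENSG00000115602, chromosome 2, 102311502 to 102352037, plus strand), the IL-33 receptor and its soluble decoy form, had 1 and 2 counts in control and 11 and 14 in UHRF1 KO. That is 0.056 and 0.108 CPM against 0.530 and 0.563 CPM, a low level in every library. The ratio of summed counts scaled to library size was 6.65, with an exact 95% interval from 2.03 to 34.4 for counting error. The fitted log2 difference was 2.65 (SE 0.76). No p is given, since the gene passed the low-count filter only through the knockout libraries, which favours a higher call. Even so, its call was lost in DESeq2 and without control replicate 1, and the gene was not tested without UHRF1 KO replicate 2. IL1RL1 overlaps IL18R1 on the same strand, so the assignment of its few reads is uncertain.

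The order of the members by level per length (CPM per kilobase of annotated exon) differed between the groups. In control, IL18 (18.6 ± 1.25) and IL1R1 (12.1 ± 0.31) led, followed at a distance by IL1RAP (1.18 ± 0.15) and IL18BP (0.977 ± 0.17), whose ranges overlapped. IL1A (0.323 ± 0.0092), IL1B (0.169 ± 0.017) and IL33 (0.051 ± 0.0014) came next. IL36G, IL1RL1 and IL1RN stood last at 0.020, 0.014 and 0.0083, each overlapping the next. In UHRF1 KO, IL18 (17.7 ± 0.42) and IL1R1 (12.1 ± 0.27) still led, and IL1A (8.65 ± 0.45) and IL1B (6.53 ± 0.14) were the third and the fourth. IL1RAP (1.95 ± 0.059) and IL1RN (1.51 ± 0.29) followed. IL18BP (0.952 ± 0.10) and IL33 (0.766 ± 0.35) overlapped, and IL1RL1 (0.095 ± 0.0040) and IL36G (0.017) were lowest. All values are mean ± SD of 2 libraries, and the exon length is the union over all transcripts, which understates genes whose main transcript is short.

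**Figure D2:**
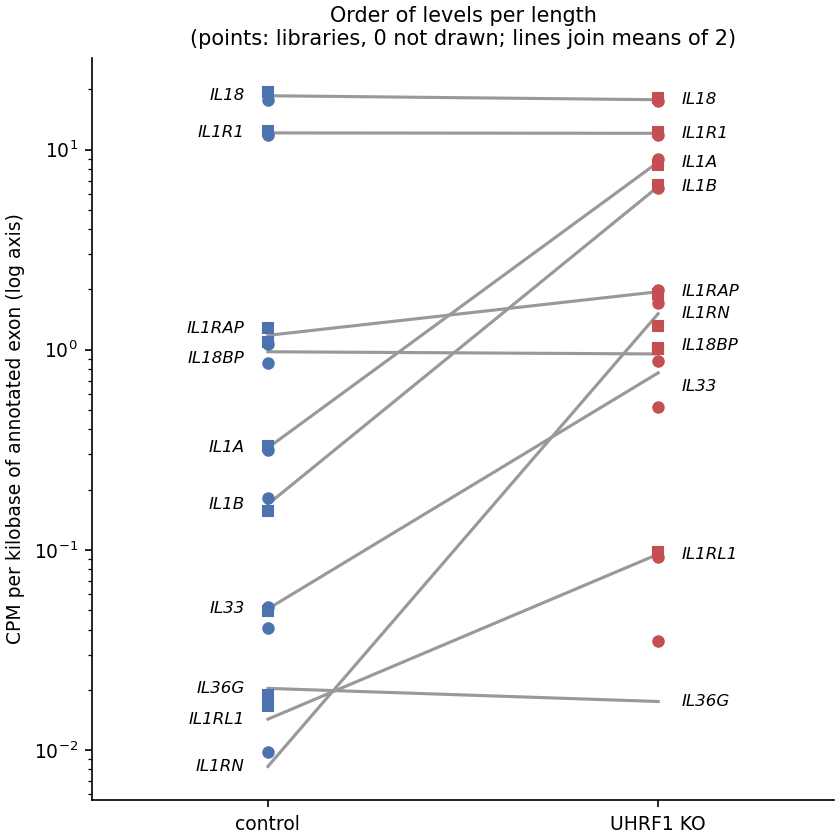
Level of each member per kilobase of annotated exon in control and UHRF1 KO, on a log axis, with a point for each library and a line between the group means. IL18 and IL1R1 lead in both groups, while IL1A and IL1B move from 0.323 and 0.169 to 8.65 and 6.53.

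The family genes outside the 10 members were examined next. Of the other ligand genes, IL36RN, the antagonist of the IL-36 receptor, had 0 and 0 counts in control and 81 and 94 in UHRF1 KO. That is at least 46.5-fold higher against a floor of 3 counts over both controls. IL36B, an IL-36 agonist gene, had 1 and 1 counts in control and 22 and 27 in UHRF1 KO. Its ratio was 19.5, with an exact 95% interval from 5.13 to 166.0. Both reached the low-count filter in the knockout libraries only, which favours a higher call, and no p is given. IL36A, IL37 and IL1F10 had at most 2 counts in any library and were not tested.

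Of the other 7 receptor genes, 3 could be tested and all 3 were called higher, each with enough reads in both controls, against 26.7% of such genes. SIGIRR, an orphan receptor that dampens IL-1 receptor signalling, rose from 14.8 ± 0.53 CPM in control to 43.5 ± 4.60 CPM in the knockout libraries (log2 fold change 1.56, SE 0.087, edgeR adjusted p = 1.14e-16). IL18R1, the IL-18 receptor chain that overlaps IL1RL1, rose from 2.31 ± 0.30 CPM in control to 5.72 ± 0.64 CPM in the knockout libraries (log2 fold change 1.30, SE 0.21). The decoy receptor IL1R2 had 22 and 47 counts in control and 63 and 81 in UHRF1 KO, and its log2 fold change was 0.73 with an SE of 0.27 (edgeR adjusted p = 0.02), which misses a threshold of 0.01. The list held 2 calls in place of 3 with recentred libraries, in DESeq2, without control replicate 1 and without UHRF1 KO replicate 2. The IL-36 receptor IL1RL2 had 0 and 0 counts in control and 3 and 0 in UHRF1 KO, and the second IL-18 receptor chain, IL18RAP, had 0 and 0 against 1 and 2. IL1RAPL1 had 0 and 0 against 7 and 5 counts, and IL1RAPL2 had 0 in all 4 libraries.

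**Figure D3:**
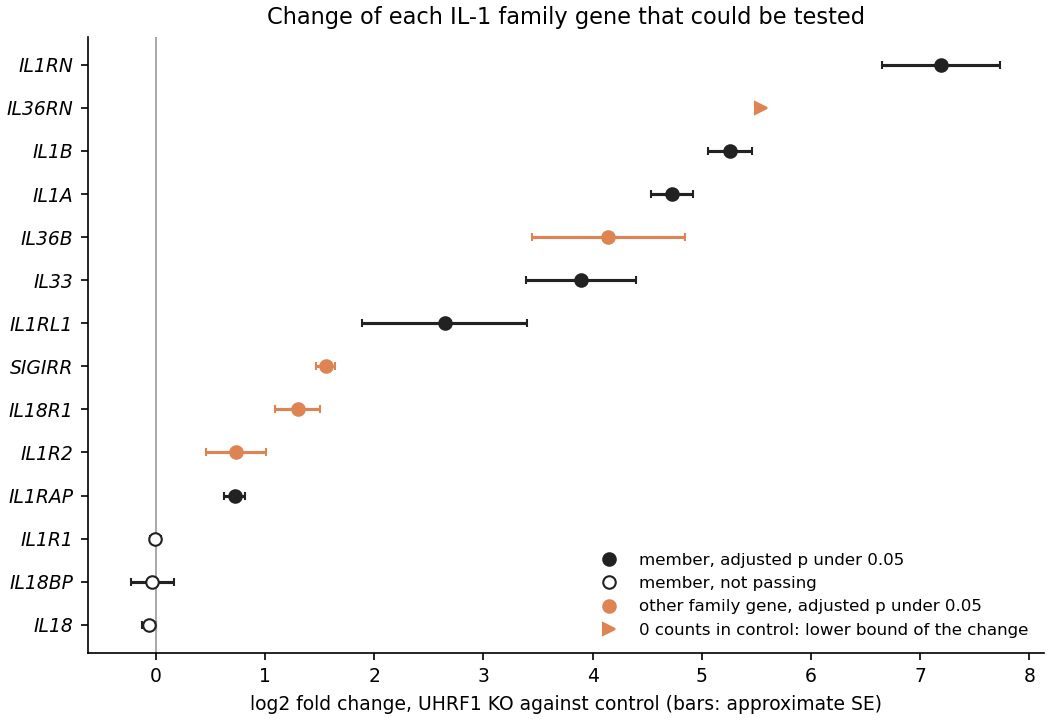
Log2 fold change of UHRF1 KO against control for the 9 tested members (black) and 5 other tested family genes (orange), with bars for the approximate SE and open points for genes that did not pass the test. IL36RN, with 0 control counts, is drawn as a lower bound (arrowhead), and IL1R1, IL18BP and IL18 lie at 0 within their SE or close to it.

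Position was not part of the rule for the members, but genes of this family lie together, so position is not independent of that choice. IL1A, IL1B, IL36G and IL1RN lie in the ligand cluster of chromosome 2 together with IL37, IL36A, IL36B, IL36RN and IL1F10, and IL1R1 and IL1RL1 lie in the receptor cluster of the same chromosome. Within the ligand cluster the genes that rose were not contiguous, but the coding genes between them had too few reads to test. IL1B lies 52.3 kb from the start of IL1A, and IL36B, IL36RN and IL1RN start 268.3, 274.0 and 322.6 kb from it, while IL37, IL36G and IL36A between them had 1 count or fewer in every library and IL1F10, between IL36RN and IL1RN, at most 2. At the edges of the cluster CKAP2L, a mitotic spindle gene 19.9 kb from IL1A, fell from 61.6 ± 3.95 CPM in control to 36.7 ± 1.43 CPM in the knockout libraries (log2 fold change -0.75, SE 0.064, edgeR adjusted p = 5.53e-12), and PSD4 did not pass the test (log2 fold change -0.18, edgeR adjusted p = 0.106).

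**Figure D4:**
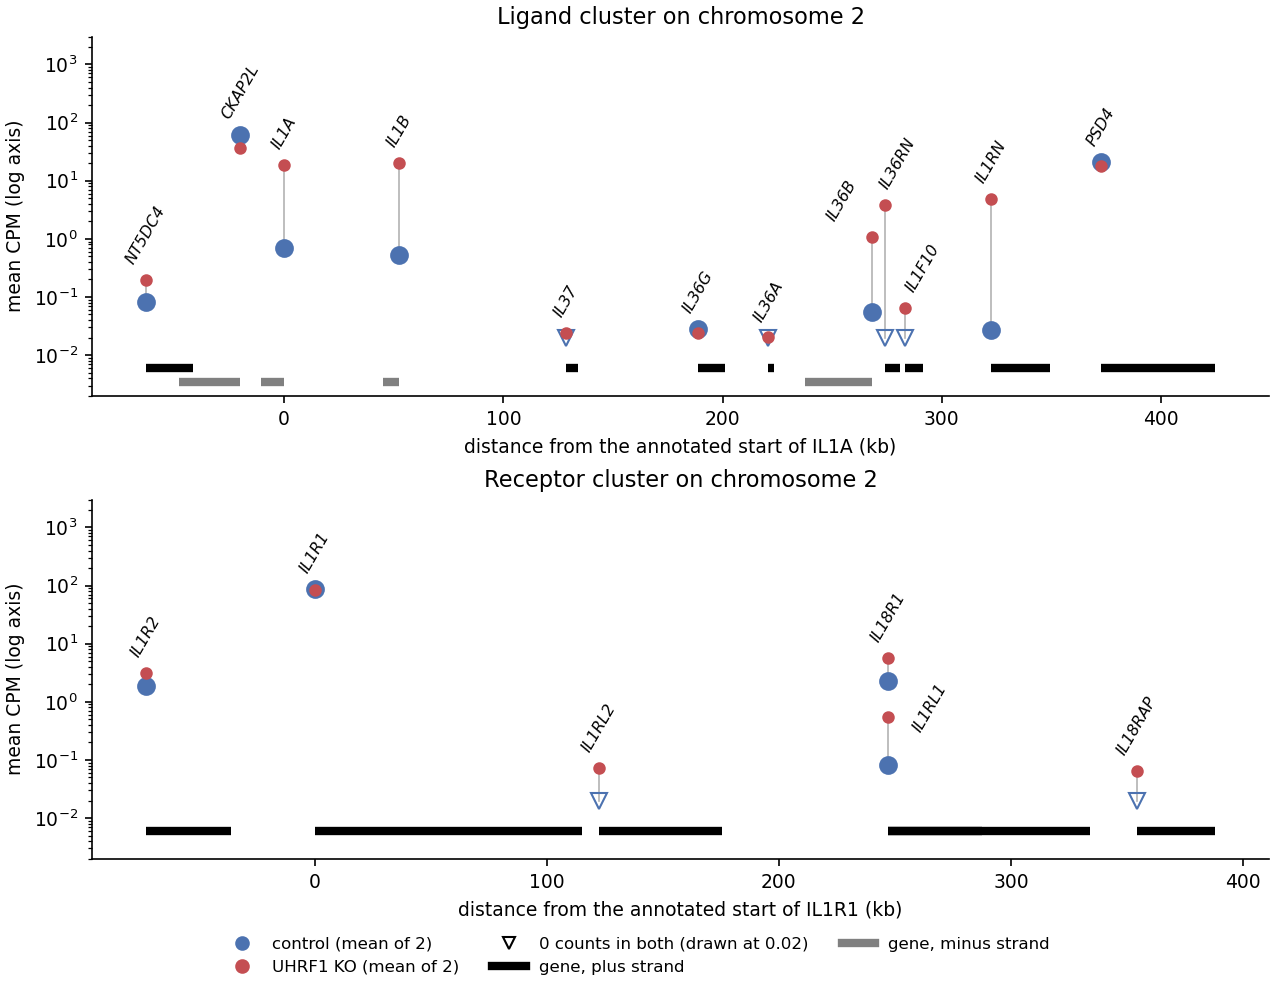
Mean CPM of coding genes in the ligand cluster (top) and receptor cluster (bottom) against distance in kb from the annotated start of IL1A or IL1R1, with control in blue, UHRF1 KO in red open triangles for 0 counts and gene bodies as bars. IL1A, IL1B, IL36B, IL36RN and IL1RN are separated from their control level, with IL37, IL36G and IL36A near 0 in between.

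Around all 10 members, 29 other coding genes start within 100 kb, and 16 of them could be tested. Of these, 5 were higher and 5 lower, against 32.0% and 30.1% of all genes tested. The 5 that rose were the family genes IL36RN, IL36B, IL18R1 and IL1R2 and the lysosomal adaptor gene LAMTOR1 near IL18BP (log2 fold change 0.18). Among these, IL36RN and IL36B were tested only through the knockout libraries, as said above. Besides CKAP2L, the mitochondrial genes TIMM8B and SDHD and NKAPD1, all near IL18, fell by 0.67, 0.36 and 0.42 on the log2 scale, and RNF121 near IL18BP fell by 0.35.

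Downstream of the receptors, the 20 adaptor and kinase genes of IL-1 receptor signalling were all tested, and 10 rose and 3 fell, with a median log2 fold change of 0.15 against 0.02 over all genes tested. IRAK2, a kinase-like adaptor of the receptor complex, rose from 43.0 ± 4.08 CPM in control to 146.8 ± 5.31 CPM in the knockout libraries (log2 fold change 1.77, SE 0.056, edgeR adjusted p = 1.27e-23). The kinase gene MAP3K8 rose by a log2 fold change of 0.70, and IRAK1 by 0.30. Those that fell were UBE2N, a ubiquitin-conjugating enzyme that acts with TRAF6, PELI2, a Pellino ubiquitin ligase, and TAB1, a partner of the kinase TAK1, with log2 fold changes of -0.38, -0.61 and -0.27. With recentred libraries the split was 6 higher and 8 lower. The list thus went both ways, and its 13 calls of 20 genes stand beside 62.0% of all genes called in either direction. By direction, its 10 rises and 3 falls stand beside 32.0% higher and 30.1% lower over all genes tested. IRAK3 reached the low-count filter only in the knockout libraries. Of the 19 genes that reached it in both controls 9 were higher and 3 lower, against 26.7% and 34.5% of such genes.

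The 5 NF-kB subunit genes gave 4 rises and 1 fall, against 32.0% and 30.1% of all genes tested. RELB and NFKB2, of the non-canonical arm, rose 1.69 and 1.30 on the log2 scale, and NFKB1 and RELA 0.48 and 0.35. REL was at -0.23 on that scale (edgeR adjusted p = 0.0459), a call that was lost in DESeq2, in limma-voom and when control replicate 2 or either knockout library was left out. The median was 0.48.

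Of 23 genes for processing and release of the cytokines, 20 were tested, 13 rose and 2 fell, with a median log2 fold change of 0.36, against 32.0% higher and 30.1% lower over all genes tested. CASP1, AIM2 and P2RX7 reached the low-count filter only in the knockout libraries, and of the 17 that reached it in both controls 10 were higher and 2 lower, against 26.7% and 34.5%. NLRP1, an inflammasome sensor of epithelial cells, had 15 and 13 counts in control and 1002 and 1221 in UHRF1 KO (log2 fold change 5.97, SE 0.14, edgeR adjusted p = 5.56e-27). The protease CTSS, the membrane-rupture protein gene NINJ1 and the inflammatory caspase gene CASP4 had log2 fold changes of 0.81, 0.68 and 1.18, all called higher. The falls were of CAPN2, a calpain, by 0.08 and CARD8, a sensor related to NLRP1, by 0.16 on the log2 scale, and neither was called by DESeq2. With recentred libraries 8 genes of the list were higher and 6 lower. Chosen after their values were seen, CASP1, which encodes the IL-1β-converting enzyme, had 8 and 2 counts in control and 22 and 37 in UHRF1 KO (log2 fold change 2.20, with no p given because it was tested only through the knockout libraries), and the sensor NLRP3 had 0 and 0 against 3 and 2.

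Genes that epithelial cells are known to induce under IL-1 formed the last list. All 24 that could be tested out of 25 were called higher, against 32.0% of all genes tested. Of the 24, 22 were at least 2-fold higher, against 15.4%. The median log2 fold change was 2.67, against 0.02 over all genes tested. Of the 24, 17 reached the filter level in both controls and all 17 were higher, against 26.7% of such genes. The other 7 (CXCL6, CSF2, CSF3, LCN2, SAA1, SAA2 and MMP1) passed the filter only through the knockout libraries, which favours a higher call. None was lower at an unadjusted edgeR p under 0.05, in DESeq2 or in limma-voom. The list shares genes with NF-kB targets already known to rise in these libraries and is not independent evidence of its direction. TNFAIP3, an inhibitor of NF-kB, had 452 and 470 counts in control and 8254 and 9785 in UHRF1 KO (log2 fold change 3.96, SE 0.049). CXCL8, the neutrophil chemokine, rose from 61.9 ± 2.04 CPM in control to 413.0 ± 3.24 CPM in the knockout libraries (log2 fold change 2.74, SE 0.043). SOD2 rose by a log2 fold change of 2.61. CSF3, the granulocyte growth factor gene tested only through the knockout libraries, rose by 9.36 from 3 and 4 control counts. Whether these genes followed the IL-1 transcripts or moved beside them was not tested.

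**Figure D5:**
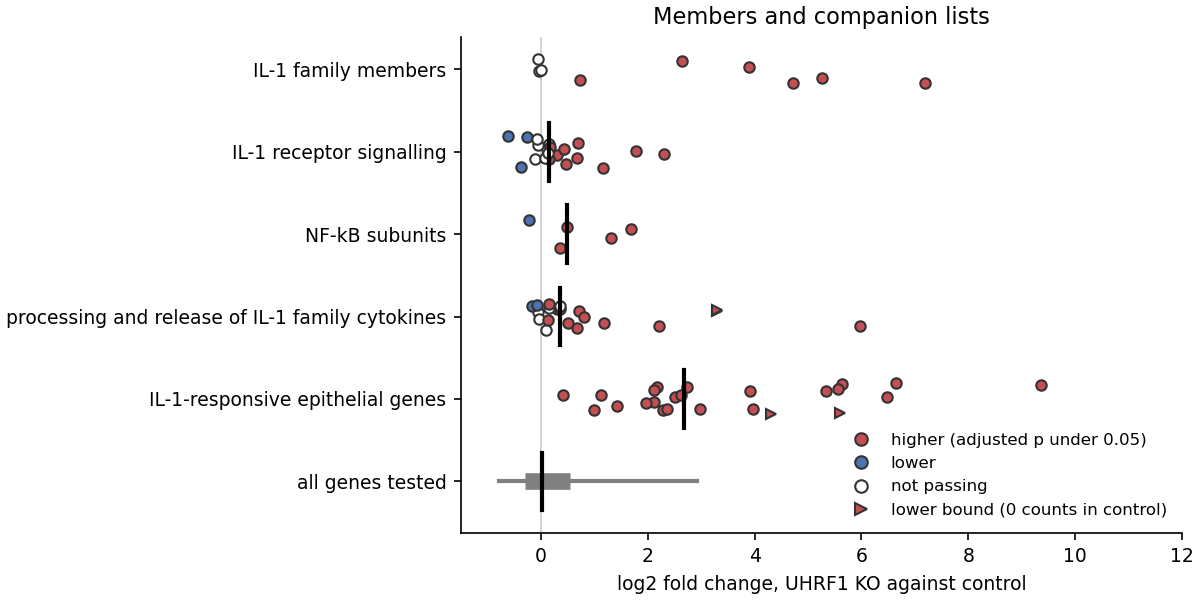
Log2 fold change of UHRF1 KO against control for the tested members and 4 companion lists, with a point for each gene, red for higher, blue for lower and white for not passing, and a black line at the median of each companion list. Arrowheads are lower bounds for genes with 0 control counts, and the grey line spans the 5th to the 95th percentile (box, the middle quartiles) of all genes tested, from -0.79 to 2.92.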

How the data were processed

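RNA-seq was done on 4 A549 libraries, 2 control and 2 UHRF1 KO. The deposited table holds raw read counts per Ensembl gene, not normalized. The submitters' processing notes name GRCh38 and FastQC 0.10.1, and the aligner, counting tool and use of strand were not stated in the sources read. Reads that match several places or overlapping genes can therefore be assigned in unknown ways. Names, positions and exon lengths came from GENCODE 29, which matched all 58735 identifiers. The control columns were matched by the number in the sample titles, since both control descriptions carry number 1.

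The test was run in R 4.3.3 with edgeR 4.0.16 (filterByExpr by group, TMM, quasi-likelihood test with robust moderation, two-sided, Benjamini-Hochberg over 17030 genes, threshold 0.05). The SE is approximate, obtained by dividing the size of the log2 fold change by the root of its F statistic. Ratios with 1 to 3 control counts have an exact binomial interval, and 0 is set to a floor of 3 counts. Replicates differed by more than counting noise (chi-square per degree of freedom 2.65 in control and 1.85 in UHRF1 KO). The steps were tested on simulated data in which few genes changed, with rises and falls drawn alike. That test does not check the scaling for data in which most genes were called. Alternatives were DESeq2 1.42.0, limma-voom (limma 3.58.1), other scalings, filters and thresholds, a replicate block and leaving out each library. The members and lists were chosen with earlier results of these data known. Named from the lists were called genes (all in lists of up to 7, otherwise the 4 with the smallest adjusted p and those opposite to most), called coding neighbours and the 3 nearest profiles.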

Additional observations from a re-analysis of the deposited data

How the results depend on the processing

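IL1A, IL1B, IL33 and IL1RN kept their direction and their call in all 14 alternatives, and IL1RAP did so in all but the 2-fold minimum. The log2 fold changes of the first 4 ran from 4.44 to 4.77, 4.97 to 5.35, 3.30 to 4.27 and 6.34 to 9.69. In the main fit IL1B, IL33 and IL1RN passed the low-count filter only through the knockout libraries, which favours a higher call. Their kept direction is therefore not independent support for a rise. IL1RL1 ran from 2.27 to 3.14 over 12 alternatives and lost its call in DESeq2 and without control replicate 1, and it was not tested with a 1 CPM minimum or without UHRF1 KO replicate 2. With libraries recentred on their mean log2 CPM, 3481 genes were higher and 8411 lower against 5445 and 5118, 2 members were lower (IL18 and IL1R1), signalling genes were 6 higher and 8 lower, and processing genes 8 higher and 6 lower. With a 2-fold minimum, 2616 genes were higher and 432 lower, signalling genes 3 and 0, processing genes 5 and 0, and NF-kB subunits 2 and 0. The falls among processing genes numbered 0 with upper-quartile factors, a 1 CPM minimum, the replicate block, DESeq2 and an adjusted p under 0.01, and from 0 to 2 with a library left out. The fall of REL was lost, leaving 0, with the same 5 settings and limma-voom, and numbered 0 or 1 with a library left out. Falls among signalling genes numbered 6 without control replicate 1, against 3. Signs turned where values were near 0: with a library left out IL18BP ran from -0.22 to 0.14 (0.059 without UHRF1 KO replicate 1) and IL1R1 from -0.051 to 0.0093, and IL1R1 was 0.018 with upper-quartile factors and 0.015 with a 1 CPM minimum. The IL18BP to IL18 difference of 0.0012 ran from -0.0028 to 0.0052 with a library left out, a check added after seeing the data, and was -0.0019 without UHRF1 KO replicate 2. The cause of these shifts was not tested. The replicate block moved the member counts by 0. Same-numbered libraries did not deviate together (correlation -0.014 over genes). This does not show whether they shared a culture or preparation, and the control numbers came from the sample titles alone. Depth limits IL36G, IL1RL1 and the control levels of IL1RN and IL33, where 1 count is a large share of the value.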
